A study of Homo sapiens with 6 samples.

Results

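The 9 genes described here belong to the HLA class I pathway and were followed in U87 cells, an established human glioblastoma line, after silencing of Caspase-8. They were taken by symbol from the deposited expression table, which lists 23290 genes, and all 9 members were found. They are the heavy chain genes HLA-B, HLA-C, HLA-E and HLA-F, the light chain gene B2M, the peptide transporter genes TAP1 and TAP2, the tapasin gene TAPBP and the transactivator gene NLRC5. RNA came from 3 samples infected with a retroviral vector for silencing of Caspase-8 (shC8) and 3 infected with the retroviral scramble vector (shCTR), grown without any other named treatment. Both groups thus carry a retroviral vector and were compared within 1 cell line, and no hairpin sequence or clone structure is given in the sources used here. The design text calls the samples of a group biological replicates and does not say whether they were separate cultures. The p-values therefore cover only the spread among these samples, which may be technical.

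HLA class I molecules show peptides from inside the cell to CD8+ T cells and are ligands of receptors on natural killer cells. Each is a heavy chain paired with beta-2 microglobulin, and it takes up its peptide in the endoplasmic reticulum, where the transporter made of TAP1 and TAP2 delivers peptides and tapasin bridges the transporter and the empty heavy chain. NLRC5 activates the promoters of class I heavy chains, B2M, TAP1 and the immunoproteasome gene PSMB9 through a module of S, X and Y boxes, while interferon and NF-kB act through an interferon-stimulated response element (ISRE) and enhancer A.

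The promoters of 5 members are shown because these elements are where the known regulators of the pathway bind, and because TAP1 and TAP2 had unlike values in the results that follow. RefSeq windows of 300 bases (250 before and 50 after the annotated start, build GRCh38.p14) were found for 7 of the 9 members. Capitals mark matches, on either strand and allowed to overlap, to the interferon regulatory factor core AANNGAAA, an NF-kB site GGANTNNCC, the CRE core TGACG of the X2 box, and CCAAT, which read on the other strand is the Y box. Each sequence runs 5′ to 3′ on the strand of its gene.

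HLA-B (chr6:31357130-31357429, minus strand): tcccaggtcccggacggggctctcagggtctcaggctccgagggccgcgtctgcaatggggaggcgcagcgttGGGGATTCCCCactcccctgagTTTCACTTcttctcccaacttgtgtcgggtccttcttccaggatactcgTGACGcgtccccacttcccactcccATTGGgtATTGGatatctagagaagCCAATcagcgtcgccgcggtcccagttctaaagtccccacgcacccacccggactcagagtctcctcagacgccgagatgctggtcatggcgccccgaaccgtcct

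HLA-C (chr6:31272043-31272342, minus strand): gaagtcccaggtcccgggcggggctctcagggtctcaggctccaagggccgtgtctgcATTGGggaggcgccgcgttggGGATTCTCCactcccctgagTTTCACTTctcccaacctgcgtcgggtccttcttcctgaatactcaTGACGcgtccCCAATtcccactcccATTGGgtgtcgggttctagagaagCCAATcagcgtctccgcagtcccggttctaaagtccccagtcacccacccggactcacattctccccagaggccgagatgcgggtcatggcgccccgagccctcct

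B2M (chr15:44711267-44711566, plus strand): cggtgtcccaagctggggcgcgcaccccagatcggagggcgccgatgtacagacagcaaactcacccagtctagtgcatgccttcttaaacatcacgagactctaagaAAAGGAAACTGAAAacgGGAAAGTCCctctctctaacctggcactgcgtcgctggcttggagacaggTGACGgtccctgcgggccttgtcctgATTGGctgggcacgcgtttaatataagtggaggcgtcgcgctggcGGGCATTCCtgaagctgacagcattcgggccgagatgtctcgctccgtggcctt

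TAP1 (chr6:32853655-32853954, minus strand): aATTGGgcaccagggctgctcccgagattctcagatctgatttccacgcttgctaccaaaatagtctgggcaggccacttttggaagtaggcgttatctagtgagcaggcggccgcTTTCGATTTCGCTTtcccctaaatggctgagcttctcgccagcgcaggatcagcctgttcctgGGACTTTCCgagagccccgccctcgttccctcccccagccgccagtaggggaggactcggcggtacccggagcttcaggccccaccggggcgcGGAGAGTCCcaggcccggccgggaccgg

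TAP2 (chr6:32838690-32838989, minus strand): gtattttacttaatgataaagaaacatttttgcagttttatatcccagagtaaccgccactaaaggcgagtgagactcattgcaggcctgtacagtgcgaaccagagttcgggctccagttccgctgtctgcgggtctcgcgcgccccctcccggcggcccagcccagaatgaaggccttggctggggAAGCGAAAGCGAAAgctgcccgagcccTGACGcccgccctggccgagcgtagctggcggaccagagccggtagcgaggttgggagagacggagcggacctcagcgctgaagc

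The interferon regulatory factor core was in the window of all 7 members with a sequence, against 22.8% of the 35116 promoter windows of the table. The NF-kB letters were in 5 members (HLA-B, HLA-C, B2M, TAP1 and TAPBP) and in 14.2% of all windows. The CRE core was in 4 (HLA-B, HLA-C, B2M and TAP2, 24.6% of all) and CCAAT in 5 (HLA-B, HLA-C, HLA-F, B2M and TAP1, 34.6% of all). In HLA-B the CRE core begins 106 bases before the start, and CCAAT boxes begin 81, 74 and 56 bases before it. In HLA-C the CRE core lies 105 bases before the start. TAP2 holds the CRE core 35 bases before its start with no CCAAT match in its window, and TAP1 has the only CCAAT match of its window 249 bases before the start. These are matches of letters and not shown to be bound.

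Expression is given as FPKM, fragments scaled to transcript length and library total, which the authors deposited with 1 value per gene and library. CASP8 itself stood at 4.39, 4.46 and 4.44 FPKM in shC8 1, 2 and 3, against 15.1, 14.9 and 13.4 FPKM in shCTR 1, 2 and 3, so 30.6% of the shCTR mean was left in shC8 (log2 change -1.51, SE 0.0705, limma adjusted p = 0.000206). The columns summed to between 489055 and 516634 FPKM. The number of reads is unknown. Judged by the step size of low FPKM values, the other 5 libraries had 1.08 to 1.2 times the depth of shCTR 1. Of 9 astrocyte and glioma markers, VIM (3785 ± 126 FPKM in shC8 and 4318 ± 464 in shCTR, SD, n = 3 each), CD44 (269 ± 21.7 and 366 ± 3.6) and NES (11.1 ± 1.56 and 6.95 ± 1.1) were present. GFAP, OLIG2, SOX2, S100B and PTPRZ1 averaged under 1 FPKM, and AQP4 was listed at 0 in every library. Leukocytes carry much class I, and their markers were low: 12 of 13 averaged under 1 FPKM over the 6 libraries, 5 of them were listed at 0 throughout, and the list summed to between 2.53 and 3.21 FPKM in shC8 and between 2.19 and 4.18 FPKM in shCTR. The leukocyte markers of highest FPKM were CSF1R at 1.42 ± 0.21 in shC8 and 1.17 ± 0.243 in shCTR, LAPTM5 at 0.55 ± 0.0691 and 1.28 ± 0.609, and CD2 at 0.549 ± 0.214 and 0.376 ± 0.225 (SD, n = 3 each). The 6 endothelial markers summed to between 1.85 and 2.29 FPKM in shC8 and between 2.51 and 2.84 FPKM in shCTR, led by KDR at 0.986 ± 0.271 and 1.66 ± 0.298, TEK at 0.88 ± 0.0869 and 0.794 ± 0.109, and PECAM1 at 0.0687 ± 0.0185 and 0.159 ± 0.0334. LAPTM5, KDR and PECAM1 were lower in every shC8 library than in any shCTR library. CDH5, another endothelial marker, was higher in every one, at 0.0239, 0.0226 and 0.039 FPKM in shC8 1, 2 and 3, against 0.00529, 0.0215 and 0.00948 FPKM in shCTR 1, 2 and 3. The part of these markers in the results was not tested. The pan-leukocyte gene PTPRC averaged 0.0443 FPKM in shC8 and 0.00646 FPKM in shCTR.

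Of the 9 class I genes, 7 rose in shC8: the 4 heavy chains, B2M, TAP1 and NLRC5. TAP2 and TAPBP did not pass the test. A mean of 1 FPKM or more was required for testing, which 11598 genes including all 9 members reached. Of these, 7.14% were higher and 4.94% lower in shC8 at an adjusted p under 0.05 (limma on log2(FPKM + 1), two-sided, Benjamini-Hochberg adjustment over all tested genes), against 7 of 9 members higher and 0 lower. At an unadjusted p under 0.05, which every called gene also meets, the members' counts stayed at 7 higher and 0 lower, so no member was added. The share of all tested genes under that unadjusted threshold was not worked out, here or for the lists below. The median log2 change was 0.46 for the members and 0.0376 for all tested genes. Every shC8 library lay above every shCTR library for the same 7 members, which was so for 21.7% of tested genes. In bulk RNA, more cells with the transcript and more transcript per cell cannot be told apart. Without shC8 2, or without shC8 3, 4 members were called.

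**Figure D1:**
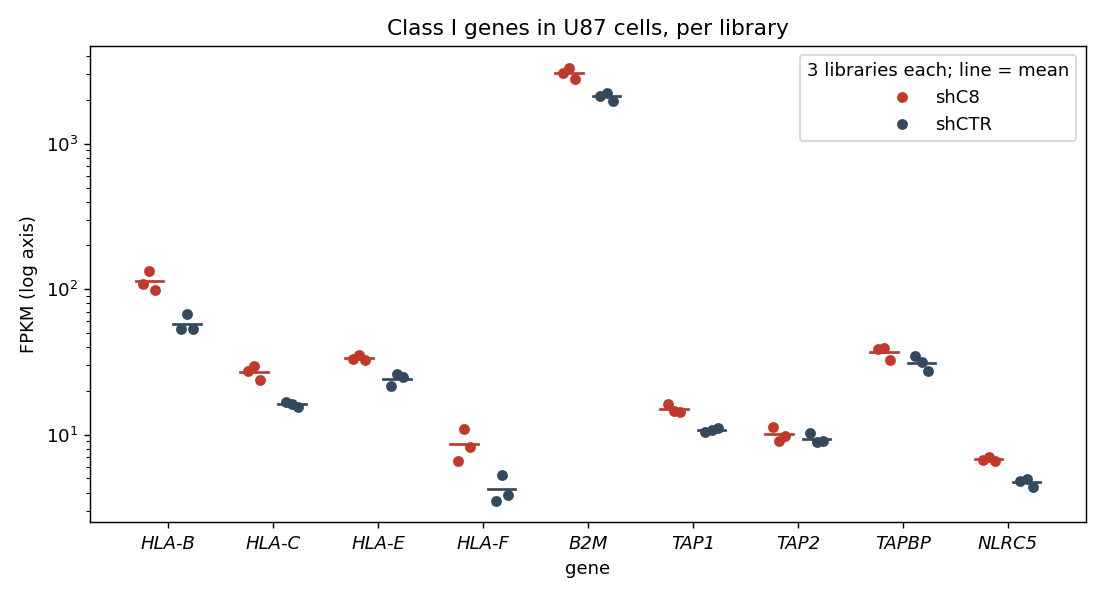
FPKM of the 9 class I genes on a log axis, with 1 point per library, shC8 left of shCTR and a line at each mean. The groups separate for HLA-B, HLA-C, HLA-E, HLA-F, B2M, TAP1 and NLRC5 and overlap for TAP2 and TAPBP, and B2M stands far above the rest, at 3065 FPKM in shC8 and 2122 FPKM in shCTR.

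Among the classical heavy chains, HLA-B (chromosome 6, 31353875 to 31357179, minus strand, GRCh38) had 109, 133 and 98.5 FPKM in shC8 1, 2 and 3, against 53.3, 67.7 and 52.9 FPKM in shCTR 1, 2 and 3. Its lowest shC8 library thus lay above its highest shCTR library. The means were 113 ± 17.6 FPKM in shC8 and 57.9 ± 8.48 FPKM in shCTR (SD, n = 3 each), 1.96-fold higher. On the log2 scale HLA-B rose by 0.96 (SE 0.135, limma adjusted p = 0.00751), the 85th largest rise of the 11598 tested genes. HLA-C, which besides presenting peptides encodes ligands of killer-cell immunoglobulin-like receptors, lies 85.1 kb from HLA-B (31268749 to 31272092). Its FPKM was 27.4, 29.8 and 23.9 in shC8 1, 2 and 3, against 16.9, 16.2 and 15.6 in shCTR 1, 2 and 3. No library of one group reached into the other, and HLA-C rose by 0.70 (SE 0.0876, limma adjusted p = 0.00494). Both genes kept their call in each of the 6 fits that left out 1 library.

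The non-classical heavy chains rose as well. HLA-E (chromosome 6, 30489509 to 30494194), whose product shows signal peptides of other class I chains to the receptor NKG2A, was at 33.1, 35.4 and 32.7 FPKM in shC8 1, 2 and 3, against 21.5, 26.1 and 25.1 FPKM in shCTR 1, 2 and 3. The groups did not overlap, and the change was 0.46 (SE 0.083, limma adjusted p = 0.0153), about the size of those of TAP1 and NLRC5. The call of HLA-E ended without shC8 2 (adjusted p = 0.0577) and without shC8 3 (adjusted p = 0.0522). HLA-F (29723434 to 29738532), a chain that can reach the surface without peptide, had 6.58, 10.9 and 8.24 FPKM in shC8 1, 2 and 3, against 3.52, 5.24 and 3.83 FPKM in shCTR 1, 2 and 3. It doubled in mean level, 2.04-fold, and had the largest SE of the 9 members, 0.182, beside a log2 change of 0.87 (limma adjusted p = 0.0256). Leaving out shCTR 1, shCTR 3, shC8 2 or shC8 3 ended the call of HLA-F, with adjusted p between 0.0648 and 0.0831.

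The class I heavy chains resemble each other, and no source used here gives the way in which the authors' software divided shared reads. FPKM is scaled to transcript length, so a sum over these genes is free of that division only where transcripts are of like length. The sum over HLA-B, HLA-C, HLA-E and HLA-F was 176, 209 and 163 FPKM in shC8 1, 2 and 3, against 95.2, 115 and 97.4 FPKM in shCTR 1, 2 and 3. This is 1.78-fold higher, and an exact two-sided permutation test gave p = 0.1, the smallest value that 3 against 3 libraries allow. Summed over every class I row of the table, pseudogenes included, the means were 314 ± 39.9 FPKM in shC8 and 172 ± 20.5 FPKM in shCTR (SD, n = 3 each), 1.82-fold higher.

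B2M (chromosome 15, 44711517 to 44718145, plus strand), the light chain gene outside the MHC, was the most abundant member and had a level above that of 99.9% of tested genes in shC8. Its FPKM was 3061, 3342 and 2792 in shC8 1, 2 and 3, against 2138, 2246 and 1981 in shCTR 1, 2 and 3. The 2 groups were apart, and B2M rose by a log2 value of 0.53 (SE 0.108) at a limma adjusted p of 0.0232. Its call held in the fewest of the fits that left out 1 library: it held without shC8 1 (adjusted p = 0.0392) and ended without any other library (adjusted p between 0.0625 and 0.0771), and it ended with no filter on low values (adjusted p = 0.154). The log2 ratio of summed heavy chain FPKM to B2M FPKM was -4.12, -4.00 and -4.10 in shC8 1, 2 and 3, against -4.49, -4.28 and -4.35 in shCTR 1, 2 and 3. It was higher by 0.302 in shC8 in mean, with no overlap (exact two-sided permutation p = 0.1, 0.15 adjusted over 3 ratios). A ratio within a library does not change with the scaling of that library.

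Of the transporter subunits, TAP1 rose and TAP2 did not pass the test. TAP1 (chromosome 6, 32845209 to 32853704) had 16.2, 14.6 and 14.4 FPKM in shC8 1, 2 and 3, against 10.4, 10.8 and 11.1 FPKM in shCTR 1, 2 and 3. It rose by 0.45 (SE 0.0701, limma adjusted p = 0.01) and kept its call in all 6 fits without 1 library. TAP2 (32821831 to 32838739) had 11.3, 9.09 and 9.81 FPKM in shC8 1, 2 and 3, against 10.2, 8.95 and 9.01 FPKM in shCTR 1, 2 and 3, so its groups overlapped. Its change was 0.09 (95% interval -0.13 to 0.31, limma adjusted p = 0.562), and it stayed between 0.01 and 0.15 over the alternatives. The log2 ratio of TAP1 to TAP2 was 0.52, 0.68 and 0.55 in shC8 1, 2 and 3, against 0.02, 0.27 and 0.31 in shCTR 1, 2 and 3. Every shC8 library had the higher ratio, by 0.387 in mean (exact two-sided permutation p = 0.1, 0.15 adjusted over 3 ratios). For comparison, the ratio of HLA-B to HLA-C differed by 0.236 with overlapping groups (exact p = 0.3, 0.3 adjusted).

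TAPBP (chromosome 6, 33299694 to 33314078), the tapasin gene, had 38.7, 39.7 and 32.6 FPKM in shC8 1, 2 and 3, against 34.6, 31.7 and 27.4 FPKM in shCTR 1, 2 and 3. One shC8 library lay below 1 shCTR library. The change of 0.24 (95% interval -0.01 to 0.49) had a limma adjusted p of 0.189, and of 0.0235 with the replicate number as a block. With that block 8 of 9 members were higher, beside 16.1% higher and 10.6% lower of all tested genes. NLRC5 (chromosome 16, 56989557 to 57083520), the transactivator, was the least abundant member in shC8, at 6.74, 7.05 and 6.58 FPKM in shC8 1, 2 and 3, against 4.83, 4.94 and 4.39 FPKM in shCTR 1, 2 and 3. These values varied little within a group and did not overlap. NLRC5 rose by 0.45 (SE 0.0731, limma adjusted p = 0.0116), with adjusted p between 0.0266 and 0.0494 when 1 library was left out.

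**Figure D2:**
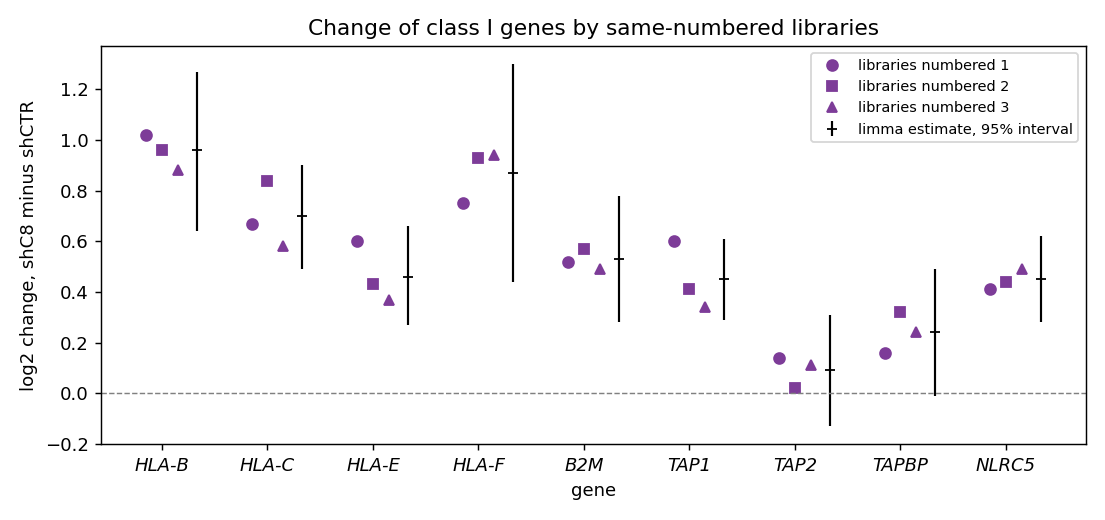
Log2 change of FPKM + 1 (shC8 minus shCTR) of each class I gene between the libraries that carry the same number, with limma's estimate and 95% interval in black. All 3 differences were above 0 for each of the 9 genes, from 0.02 for TAP2 to 1.02 for HLA-B, and the intervals of TAP2 and TAPBP include 0.

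By level, B2M came first in both groups, then HLA-B, TAPBP, HLA-E, HLA-C, TAP1 and TAP2. TAPBP and HLA-E overlapped in shC8 and not in shCTR. At the low end TAP2 and HLA-F, and HLA-F and NLRC5, overlapped in shC8, while in shCTR NLRC5 and HLA-F overlapped and HLA-F was the lowest. Within shC8, library 2 was the highest for 7 of 9 members and library 3 the lowest for 7. Numbers in the deposited column names form a lower range (shC8 1, shCTR 1 and shCTR 3) and an upper range (shC8 2, shC8 3 and shCTR 2) of unstated meaning. Changes of the 7 risen members lay between 0.47 and 1.03 within the lower and between 0.37 and 0.75 within the upper range, and 7 members were called when the fit held that range as a term.

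The genes that make, trim and load the peptides are read here beside the 7.14% higher and 4.94% lower of all tested genes. Counts with the replicate block are read beside the 16.1% higher and 10.6% lower of all tested genes under that block. The proteasome list of 11 genes held immunoproteasome and activator genes, and also standard subunit, inhibitor and assembly factor genes. Of the 11, 0 passed the test in limma, and their median log2 change was 0.10. At an unadjusted p under 0.05, where the share of all tested genes was not worked out, 1 was higher and 0 lower. The immunoproteasome subunit genes PSMB8, PSMB9 and PSMB10 had log2 differences of 0.22 (limma adjusted p = 0.126), 0.17 (adjusted p = 0.525) and 0.17 (adjusted p = 0.346). PSMB9 starts 488 bases from TAP1 and is transcribed away from it. Its FPKM was 73.1, 61.7 and 50.2 in shC8 1, 2 and 3, against 64.2, 55.1 and 44.3 in shCTR 1, 2 and 3, with library 1 highest and library 3 lowest in both groups. With the replicate block 2 of the 11 were higher, PSMB8 and PSMB9 (adjusted p = 0.035 for each). Among 19 peptide trimming and loading partners 1 rose and 18 did not pass, a share near that of all tested genes, with a median of 0.12. With the replicate block 3 were higher, again a share near that of all tested genes (16.1%). They were GANAB and the COPII coat genes SEC24C (adjusted p = 0.0498) and SEC24D (adjusted p = 0.0145). The gene called without the block was GANAB, a glucosidase II subunit gene of glycoprotein folding, at 77.8 ± 4.05 FPKM in shC8 and 64.6 ± 2.29 FPKM in shCTR (SD, n = 3 each, change 0.27, limma adjusted p = 0.0396), which lost its call in each fit without 1 library (adjusted p up to 0.121) and under median-of-ratios scaling. The chaperone genes CALR, CANX and PDIA3 had differences of 0.04, 0.02 and 0.12, and the aminopeptidase genes ERAP1 and ERAP2 of 0.15 and 0.06, none past the threshold.

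Of 20 promoter factor genes 1 fell and 19 did not pass, near the 4.94% lower of all tested genes, and their median was 0.04. USF1, an E-box factor, was also higher with the replicate block (adjusted p = 0.0342), as were 16.1% of all tested genes. The fallen gene was ATF1, a CREB family factor, at 14.2 ± 0.692 FPKM in shC8 and 19.7 ± 1.8 FPKM in shCTR (change -0.44, limma adjusted p = 0.0169), and it kept its call in 2 of the 6 fits without 1 library (adjusted p up to 0.0688). RFX5, a subunit of the X box factor, had a change of 0.14 (limma adjusted p = 0.227). IRF1, an activator of the ISRE, was at 6.82 ± 0.458 FPKM in shC8 and 6.78 ± 1.01 FPKM in shCTR, a change of 0.01 (limma adjusted p = 0.948).

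Of 15 interferon pathway genes tested, 1 was called higher and 1 lower, near the 7.14% and 4.94% of all tested genes, and the median change was -0.03. With the replicate block 2 were higher and 2 lower, beside 16.1% higher and 10.6% lower of all tested genes. The additions were the kinase gene TYK2 (adjusted p = 0.0235) and the phosphatase gene PTPN11 (adjusted p = 0.0317). IFNB1 and IFNA1 were listed at 0 in all 6 libraries. IFNG was at 0, 0.0745 and 0 FPKM in shC8 1, 2 and 3, and at 0 in every shCTR library. STAT2 and IRF9, which carry the type I interferon signal, had log2 differences of -0.16 (limma adjusted p = 0.224) and 0.17 (adjusted p = 0.179), and the receptor genes IFNGR1 and IFNAR1 of -0.06 and -0.08 without passing. IL10RB, the receptor chain shared by interleukin-10 and the lambda interferons, rose to 26 ± 1.2 FPKM in shC8, against 17.7 ± 1.51 FPKM in shCTR (change 0.53, limma adjusted p = 0.00814), and kept its call without each library. SOCS1, a feedback inhibitor of JAK kinases, fell to 2.38 ± 0.254 FPKM in shC8, against 3.84 ± 0.742 FPKM in shCTR (change -0.51, limma adjusted p = 0.0438). Only the fit without shCTR 3 kept that call, and the other 5 fits without 1 library reached adjusted p of up to 0.126.

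Class II molecules present peptides to CD4+ T cells. Their list joined the HLA-D genes of the same region with related genes outside it, CIITA, CD74 and IFI30 among them. The median change of the list was -0.03. Of 14 tested, 0 were called higher and 1 lower in limma, beside 7.14% higher and 4.94% lower of all tested genes. The lower gene was CIITA, so no tested HLA-D gene was called. At an unadjusted p under 0.05 the counts were 1 higher and 3 lower. They cannot be set against all tested genes, whose share at that threshold was not worked out. Under the replicate block 1 was higher, IFI30 (adjusted p = 0.0198), and 2 were lower, CIITA and HLA-DQA1 (adjusted p = 0.0447). Of all tested genes, 16.1% were higher and 10.6% lower under that block. HLA-DRA had 159.5 ± 9.52 FPKM in shC8 and 174 ± 28 FPKM in shCTR (change -0.11, limma adjusted p = 0.564), and the invariant chain gene CD74 had a difference of -0.01 (adjusted p = 0.961). CIITA, the class II transactivator and a relative of NLRC5, fell to 4.09 ± 0.522 FPKM in shC8, against 6 ± 0.645 FPKM in shCTR (SD, n = 3 each, change -0.46, limma adjusted p = 0.034). NLRC5 and CIITA thus had called changes in opposite directions, though the call of CIITA did not hold in every fit. The fits that left out shCTR 2, shCTR 3, shC8 2 or shC8 3 ended the call of CIITA, at adjusted p of up to 0.114. A term for the column number range (0.0592) and the fit with no filter on low values ended it as well.

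**Figure D3:**
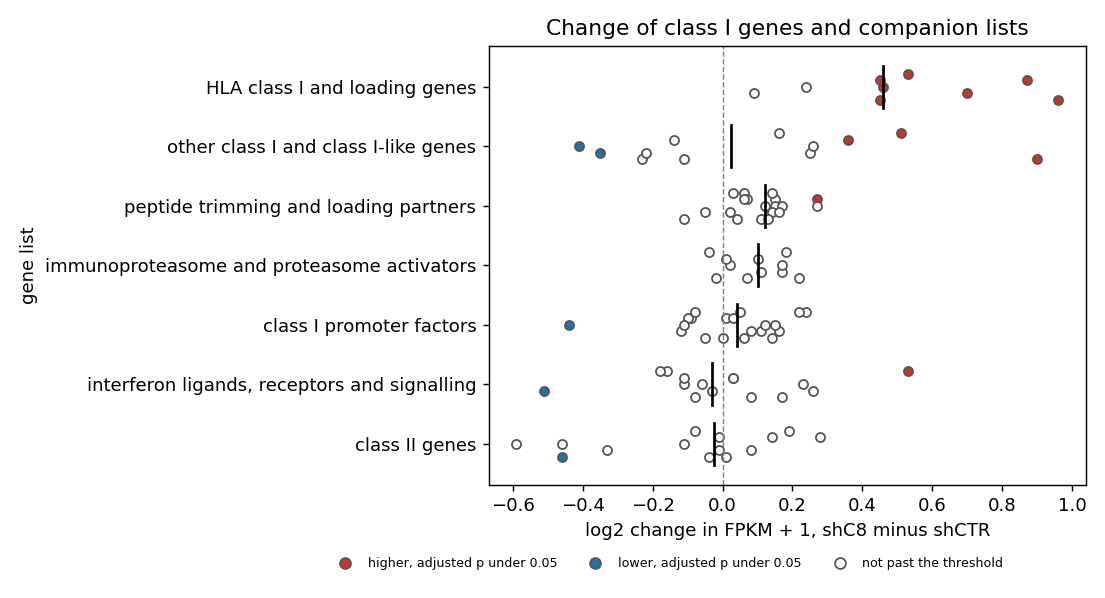
Log2 change (shC8 minus shCTR) of every tested gene in the class I list and 6 companion lists, with filled points for genes past the adjusted p threshold and a line at each median. The class I list has its median at 0.46, while the medians of the companion lists lie between -0.03 and 0.12.

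Of the 9 members, 7 lie on chromosome 6 between 29723434 and 33314078, so their neighbours in that interval were read as well. Of 82 other tested genes there, 1 was higher, 3 were lower and 78 did not pass, with a median log2 change of 0.01. The lower ones were PPP1R11 (change -0.41, limma adjusted p = 0.0122) and PPP1R10 (-0.29, adjusted p = 0.0472), genes of protein phosphatase 1 partners, and GPANK1 (-0.42, adjusted p = 0.0315). The share higher was 1.22% of these neighbours, against 7.14% of all tested genes. The risen genes B2M and NLRC5 lie on chromosomes 15 and 16.

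**Figure D4:**
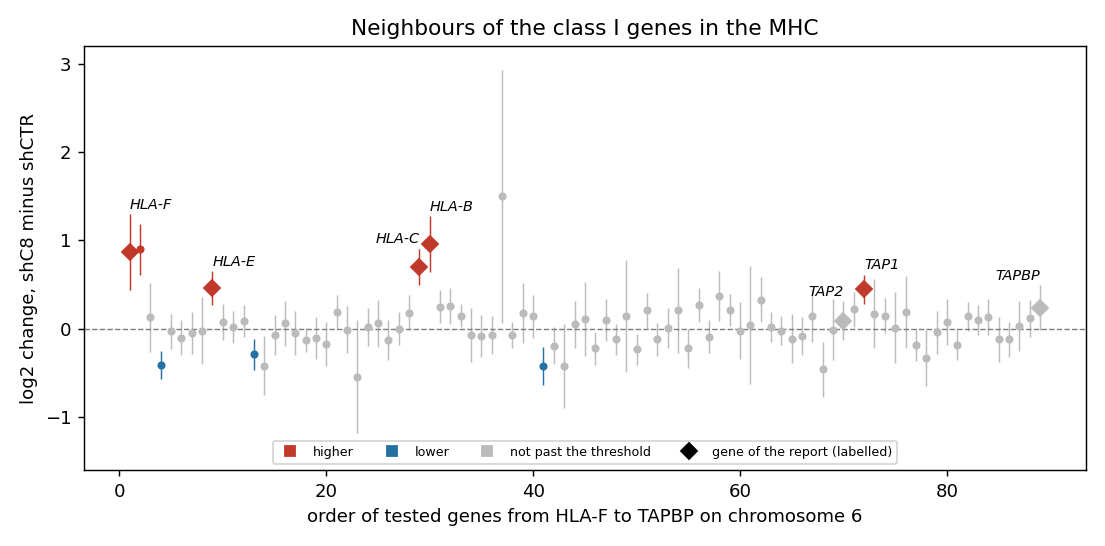
Log2 change (shC8 minus shCTR) with 95% intervals of the 89 tested genes from HLA-F to TAPBP in their order on chromosome 6, with labelled diamonds for class I genes. The rises of HLA-F, HLA-E, HLA-C, HLA-B and TAP1 stand among neighbours near 0, and TAP2, close to TAP1, is at 0.09.

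The genes outside the list whose values followed the mean standardized level of the 9 members most closely over the 6 libraries were PCYT1B, RASSF7, CTSA, TMEM117 and TRAK2, with Pearson r between 0.9933 and 0.9978. They were picked for this likeness from all tested genes, the 6 points share the 2 groups, and r is given as a description. CTSA, the gene of a lysosomal carboxypeptidase, had 311, 312 and 287 FPKM in shC8 1, 2 and 3, against 219.7, 221 and 215 FPKM in shCTR 1, 2 and 3.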

How the data were processed

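Total RNA from 6 U87 samples was treated with DNase, and stranded libraries were made after ribosomal RNA removal, per the labels' protocols. The authors deposited FPKM values, 1 column per library; per the submitters' processing notes TopHat, Cufflinks, Cuffdiff and hg38 were used, with no version or role stated. The annotation, any further scaling and the use of strand in counting are not given in the sources used here. Values in FPKM depend on a library total, and reads of similar HLA genes can be divided by the software.

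The 11598 of 23290 genes that averaged 1 FPKM or more were tested on log2(FPKM + 1) with limma 3.58.1 (R 4.3.3) with a mean trend, adjusted over all of them. Fold changes on this scale understate those of low genes, and "-fold" is a ratio of mean FPKM. Sums and ratios were tested by exact permutation. FPKM carries no counts, so no count model or counting interval was used. Python 3.11.15 and RefSeq tables (GRCh38.p14, the assembly family of hg38) gave positions and promoters. The limma fit was tested on simulated data in which 200 of 11598 genes were changed. It recovered 54% of log2 changes of 0.5 and 90% of log2 changes of 1, and 2.7% of its calls were false. A gene that did not pass is therefore not shown to be unchanged.

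Same-numbered libraries deviated together from their group means (r across genes 0.397, 0.266 and 0.291). Between shC8 and shCTR libraries of unlike number, r lay between -0.32 and 0.0378. The numbers were therefore taken to pair the libraries, which no label states. The fit without a block stayed the main one, so its p-values and calls ignore this pairing.

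The members, companion lists and motifs were chosen with earlier results of these data known. Besides the members and CASP8, the text names up to 4 called genes per list, a fixed set of pathway genes, the 3 marker genes of highest FPKM per marker list, the 5 genes most like the members and up to 4 called neighbours. CD2, GFAP and other markers at or near 0, IFNB1, IFNA1 and IFNG, HLA-DRA, CD74, CDH5, PTPRC and genes called only with the replicate block were named after their values were seen. Some genes that this rule would name are not reported here. Alternatives were a pseudocount of 0.1, no filter, a minimum mean of 5 FPKM, quantile and median-of-ratios scaling, the replicate block, no mean trend, the column number range as a term, and each library left out in turn.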

Additional observations from a re-analysis of the deposited data

How the results depend on the processing

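HLA-B, HLA-C, TAP1, NLRC5 and CASP8 as called, and TAP2 as not called, kept their direction and side of the threshold under every alternative run. With no filter on low values, HLA-F (0.87, adjusted p = 0.0683) and B2M (0.53, adjusted p = 0.154) lost their calls and 5 members stayed called. With the replicate block TAPBP passed at 0.24 (adjusted p = 0.0235), 8 members were called, and the block changed no other member's call. Leaving out 1 library gave changes of 0.39 to 0.52 for HLA-E, 0.70 to 1.02 for HLA-F and 0.46 to 0.59 for B2M, and between 4 and 7 called members. The causes were not tested, though fewer samples leave less to test with. Calls over the 6 companion lists numbered 10, and 21 with the replicate block, 4 with no filter and 2 to 7 with 1 library left out. With that block the shares of all tested genes rose too, from 7.14% to 16.1% higher and from 4.94% to 10.6% lower. The heavy chain sum and the 3 ratios were recomputed only with median-of-ratios scaling, the replicate block and each library left out, and kept their direction in these. With the replicate block their exact p was 0.25, the smallest that 3 pairs allow. Absolute depth is unknown, which limits how small a change of the lowest members, HLA-F and NLRC5, could be seen.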

Other observations

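Relatives of class I that do not present ordinary peptides moved both ways. Their list held 12 tested genes, 3 called higher and 2 lower, and had a median log2 change of 0.03. These counts, made without the replicate block, are read beside the 7.14% higher and 4.94% lower of all tested genes. HFE, which encodes a B2M-binding regulator of iron uptake, was at 6.22 ± 0.727 FPKM in shC8 and 4.06 ± 0.317 FPKM in shCTR (SD, n = 3 each, change 0.51, limma adjusted p = 0.0185), and kept its call in 3 of 6 fits without 1 library. MR1, which shows vitamin B metabolites to MAIT cells, was at 2.69 ± 0.165 FPKM in shC8 and 1.88 ± 0.206 FPKM in shCTR (change 0.36, limma adjusted p = 0.0469), and kept its call in 0 of these fits (adjusted p up to 0.139). RAET1G, a ligand gene of the natural killer receptor NKG2D, changed by -0.41 (limma adjusted p = 0.0349), and PROCR, the endothelial protein C receptor gene, by -0.35 (adjusted p = 0.0382). Each of the last 2 kept its call in 1 of 6 fits. The NKG2D ligand genes MICA and MICB had changes of 0.25 (limma adjusted p = 0.0775) and 0.26 (adjusted p = 0.0962). With the replicate block MICB was called higher (adjusted p = 0.0333) and ULBP3, another such ligand gene, lower (adjusted p = 0.0363). Of all tested genes, 16.1% were higher and 10.6% lower with that block.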
